A study of Homo sapiens with 6 samples.

Results

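AGS and HGC-27, both human gastric cancer cell lines, were compared with each other across all measured genes. The comparison took all 6 of the 6 arrays of the series: 3 of AGS and 3 of HGC-27, assigned by the labelled cell line, 1 array for each line in each of 3 conditions. In each line the first array came from parental cells, which were not transfected. The second came from cells nucleofected with 3 µg of empty vector and 1.5 µg of a GFP plasmid, called the GFP control here, and the third from cells given 3 µg of a plasmid for MIST1, a transcription factor of enzyme-secreting cells, with the same 1.5 µg of GFP plasmid. Both transfected populations were sorted for GFP fluorescence 24 h after transfection and grown for 24 h more, and no label says that parental cells were sorted. All cells were kept in DMEM or RPMI with serum, and the labels do not say which line grew in which medium, so line and medium cannot be told apart. Each condition was used as a block, so that AGS was always set against HGC-27 cells treated the same way. The 3 conditions therefore stood in for replicates, no label names separate cultures of one condition, and the p-values measure only the spread of the line difference over these conditions.

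AGS was derived from a gastric adenocarcinoma and is used as a model of epithelial gastric cancer, while HGC-27 comes from an undifferentiated gastric carcinoma. Epithelial cells hold each other through E-cadherin, desmosomes and tight junctions and carry keratin filaments. Mesenchymal cells carry vimentin filaments, make fibrous matrix and switch off epithelial genes through the SNAI, ZEB and TWIST families of transcription factors. The passage of carcinoma cells from the first state towards the second is called the epithelial-mesenchymal transition (EMT), and undifferentiated gastric carcinomas are known for weak epithelial features.

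The deposited values were intensities on a linear scale, with array medians between 49.12 and 51.96. Pearson r of log2 values over the genes tested was 0.971 to 0.996 between arrays of one line and 0.704 to 0.730 between arrays of different lines, a description across genes, which are not independent. Bacterial and phage control transcripts added to every sample before hybridisation were read by 18 probe sets, with a mean log2 intensity of 9.79 to 9.94 in AGS and 9.55 to 9.86 in HGC-27. The middle probe set for 18S ribosomal RNA read 1142 in parental AGS and 371 in parental HGC-27 against 46.8 to 52.7 on the transfected arrays. That for 28S ribosomal RNA read 2005 and 1514 in these parental cells against 1960 to 2250 on the transfected arrays, with no such excess. The part of ribosomal RNA in the results was not tested. The labelled lines were checked against marker genes. KRT18 and EPCAM, markers of epithelium, were bright in AGS, and all 3 HGC-27 arrays read them below 50.53, the median of all values. Markers of fibroblasts, DCN, LUM and COL1A1, were bright in HGC-27, while PDGFRB, a receptor of fibroblasts and pericytes, read 62.98, 62.7 and 79.05 there, close to that median, and lost its call with the floor at the median. Among 10 measured markers of leukocytes, endothelium and muscle none was called in either direction, with differences between -0.44 and 0.24. Of all genes 15.1% were called higher in AGS and 12.5% in HGC-27. Of 22 such markers listed, only these 10 passed the filter on dim probe sets. Only 1 had at least 3 arrays above 4 times the median, so most were not bright in either line. The labels call both lines gastric, and on these arrays the 2 epithelial markers stayed in the dimmer part of all values in HGC-27 while DCN, LUM and COL1A1 were high. In such bulk RNA, fewer cells of a type and less RNA per cell cannot be told apart.

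Of 13730 genes tested with limma, 2077 were higher in AGS, or 15.1%, and 1721 were higher in HGC-27, or 12.5%. A gene counts as higher, or called, when its adjusted p was under 0.05 and the difference at least 2-fold. The adjusted p alone was passed by 8262 genes, or 60.2%. Differences are given as log2 of AGS minus log2 of HGC-27 with the standard error of the fit over 3 conditions, so that positive values are higher in AGS. Of the 3798 called genes, 3787 had one sign in all 3 conditions and 3021 were at least 2-fold in each of them. Every array of one line lay above every array of the other in 8431 of the genes tested, or 61.4%, so lines without overlap are common here. At least 16-fold differences were found for 285 genes in AGS and 328 in HGC-27. Where all 3 arrays of the dimmer line lay at or below the median of all values, the fold is printed as "at least", the mean of the brighter line over that median. That was so for 588 of the genes higher in AGS and 801 of those higher in HGC-27. Values of single genes are listed in the order parental, GFP control, MIST1.

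**Figure D1:**
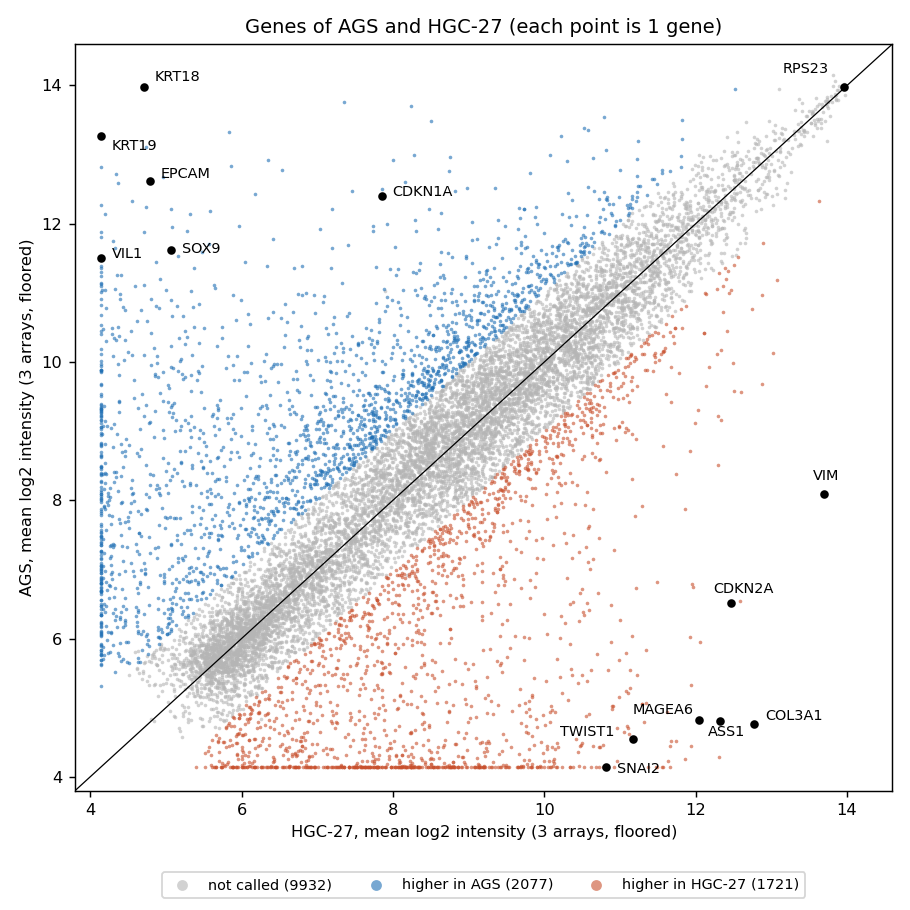
Mean log2 intensity of each of 13730 genes in HGC-27 (x axis) against AGS (y axis), 3 arrays each, after values were floored at 17.6. Blue points are the 2077 genes called higher in AGS and orange points the 1721 called higher in HGC-27, with the line of equality in black. KRT18, KRT19, EPCAM and VIL1 lie far to the upper left, SNAI2, TWIST1, COL3A1 and ASS1 far to the lower right, and RPS23 on the diagonal.

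The called counts of every list below stand beside 15.1% of all genes higher in AGS and 12.5% higher in HGC-27. Keratins and surface genes of epithelium had the highest median difference of the 36 lists. Of 26 measured, 25 were higher in AGS and none in HGC-27, with a median difference of 5.14 against 0.06 over all genes. KRT19 encodes a keratin of simple epithelia. AGS read KRT19 at 8049.6, 11174 and 10793 and HGC-27 at 5.9, 9.2 and 7.32, at least a 196-fold difference (9.14 ± 0.13, adjusted p = 2.6e-07). EPCAM encodes a surface adhesion molecule of epithelial cells. In HGC-27 EPCAM read 34.4, 26.6 and 22.99, against 7098, 6100.5 and 5681 in AGS, at least 124-fold lower (7.83 ± 0.11, adjusted p = 2.6e-07). All 3 AGS arrays were bright for both genes, and the HGC-27 arrays lay at the dim end of the array. The lines did not overlap, as in 61.4% of all genes tested. MAL2, a protein of apical membrane traffic, differed by 8.69 ± 0.12. SPINT1 and SPINT2 encode inhibitors of membrane serine proteases and differed by 6.99 ± 0.13 and 6.99 ± 0.10. KRT18 had the largest difference of the list, 9.27 ± 0.19, from a probe set that can also bind related transcripts. KRT8, the usual filament partner of KRT18 and named here after its values were seen, was read at 8978, 11528 and 11898 in AGS cells and at 1349.5, 1518 and 1562 in HGC-27, a 7.27-fold difference by a probe set of the same kind. The KRT8 probe set thus read HGC-27 well above the median of all values while that of KRT18 read it below. EHF, an epithelial ETS factor, was the one measured member not called (-0.21 ± 0.17, adjusted p = 0.33), near the median of all values in both lines.

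Of 15 adhesion and desmosome genes 12 were higher in AGS and none in HGC-27 (median 2.31). JUP is plakoglobin, which links cadherins to filaments. The intensities of JUP were 2288, 3209.7 and 3304 in AGS against 2.88, 6.17 and 8.02 in HGC-27. That is at least 57.3-fold higher in AGS (7.36 ± 0.15, adjusted p = 3.4e-07). PPL (periplakin), DSP (desmoplakin), PKP2 and PKP3 (plakophilins of the desmosome plaque) differed by 7.24 ± 0.17, 6.25 ± 0.22, 6.05 ± 0.19 and 5.17 ± 0.18. CDH1, which encodes E-cadherin and is named here after its values were seen, had intensities of 221, 286 and 291 in AGS but 22.1, 89.8 and 75.4 in HGC-27. Its difference of 2.31 ± 0.31 was smaller than those of the desmosome genes, with every AGS array above every HGC-27 array. Beta-catenin (CTNNB1, 0.99 ± 0.07, adjusted p = 2.7e-05) and alpha-catenin (CTNNA1, 0.73 ± 0.06, adjusted p = 6.4e-05) passed the adjusted p but not the 2-fold limit. Both catenins were bright in both lines.

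Among 18 tight junction genes 12 were higher in AGS and 1 in HGC-27 (median 3.23). CLDN4, a claudin that seals the paracellular space, measured 2606, 2043 and 2155 in AGS against 11.9, 12.1 and 13.04 in HGC-27, at least 44.6-fold higher. MARVELD2 (tricellulin, at corners between 3 cells), CLDN7, CRB3 (an apical polarity protein) and OCLN (occludin) differed by 5.60 ± 0.15, 4.89 ± 0.11, 4.71 ± 0.12 and 4.02 ± 0.11. CGNL1, a paracingulin, was the one member higher in HGC-27 (-1.17 ± 0.24, adjusted p = 0.0047). All of its values lay between 11.2 and 66.8, its call was lost with the floor at the median, and no fold is given.

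Promoters of these genes are shown because CAGGTG and its reverse complement CACCTG form the E-box that SNAI and ZEB repressors bind, and SNAI2 and ZEB1 were among the genes higher in HGC-27. RefSeq promoters on GRCh38.p14 span 250 bases before to 50 after each start. On either strand the E-box occurred in 20.6% of 35116 promoters. By gene, with any of its promoters, it occurred in 24.1% of the 11060 tested genes with a promoter entry, 32.6% of those higher in AGS, 22% of those higher in HGC-27 and 22.8% of those not called. Among the epithelial surface, adhesion and tight junction genes higher in AGS, 29 of 49 had an entry and 20 of the 29 held the E-box, or 69.0%. By list that was 10 of 12, 5 of 7 and 5 of 10. A match is a description of the letters and not a bound site. Examples with a single promoter and a match from each list are printed 5′ to 3′ along the gene's own strand, with the E-box in capitals. They were taken by size of difference from only part of the genes, and need not be the largest of their lists. S100A14 and RAB25 belong to the surface genes, DSP and NECTIN4 to the adhesion genes and CRB3 to the tight junction genes.
S100A14 (chr1:153616276-153616575, minus strand): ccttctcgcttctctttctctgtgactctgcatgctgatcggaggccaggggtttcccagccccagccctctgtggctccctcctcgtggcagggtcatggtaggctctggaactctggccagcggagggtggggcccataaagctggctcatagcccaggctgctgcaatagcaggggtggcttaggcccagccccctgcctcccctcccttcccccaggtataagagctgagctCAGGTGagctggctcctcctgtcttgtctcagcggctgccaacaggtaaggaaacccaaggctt
RAB25 (chr1:156060910-156061209, plus strand): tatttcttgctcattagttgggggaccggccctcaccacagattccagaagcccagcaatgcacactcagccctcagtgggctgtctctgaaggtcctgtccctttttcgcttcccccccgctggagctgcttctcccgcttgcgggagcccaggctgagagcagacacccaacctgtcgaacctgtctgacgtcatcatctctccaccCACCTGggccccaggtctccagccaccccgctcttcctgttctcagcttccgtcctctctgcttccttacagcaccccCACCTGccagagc
DSP (chr6:7541421-7541720, plus strand): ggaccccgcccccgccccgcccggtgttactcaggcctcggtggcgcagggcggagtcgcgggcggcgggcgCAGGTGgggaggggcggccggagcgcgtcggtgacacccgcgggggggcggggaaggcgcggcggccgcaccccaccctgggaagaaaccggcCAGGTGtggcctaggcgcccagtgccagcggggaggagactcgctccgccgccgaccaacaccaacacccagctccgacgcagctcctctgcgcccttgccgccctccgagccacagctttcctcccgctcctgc
NECTIN4 (chr1:161089509-161089808, minus strand): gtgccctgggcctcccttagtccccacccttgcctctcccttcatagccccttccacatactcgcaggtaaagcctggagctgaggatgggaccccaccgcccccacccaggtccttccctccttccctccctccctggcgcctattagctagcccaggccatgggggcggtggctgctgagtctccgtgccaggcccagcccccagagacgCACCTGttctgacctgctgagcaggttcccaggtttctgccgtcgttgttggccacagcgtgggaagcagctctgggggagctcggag
CRB3 (chr19:6464021-6464320, plus strand): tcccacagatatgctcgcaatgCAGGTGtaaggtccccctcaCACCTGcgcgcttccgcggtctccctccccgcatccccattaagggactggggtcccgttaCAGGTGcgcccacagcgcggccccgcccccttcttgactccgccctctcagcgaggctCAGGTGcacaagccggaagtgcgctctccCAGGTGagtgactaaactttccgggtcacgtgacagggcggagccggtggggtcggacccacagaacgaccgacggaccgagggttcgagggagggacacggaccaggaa

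S100A14, a calcium-binding protein of epithelia, differed by 6.60 ± 0.17, RAB25, an epithelial GTPase of membrane recycling, by 6.58 ± 0.16, and NECTIN4, an adhesion molecule, by 2.19 ± 0.18. These 3 are named for their promoters. The single E-box of S100A14 began at position -14 from the gene's start, RAB25 and DSP held 2 each, NECTIN4 held 1 and CRB3 held 5.

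Regulators of EMT and mesenchymal genes ran the other way: 15 of 25 were higher in HGC-27 and 1 in AGS (median -3.09). SNAI2 encodes Slug, a repressor of E-cadherin. AGS read SNAI2 at 13.7, 7.09 and 8.91 and HGC-27 at 1254, 2108 and 2222, at least a 35.7-fold difference (-6.68 ± 0.19, adjusted p = 7.0e-07). TWIST1 encodes a further EMT factor of mesoderm. In HGC-27 TWIST1 read 2761, 2112 and 2091, against 22.8, 22 and 25.1 in AGS, at least 45.5-fold higher (-6.63 ± 0.14, adjusted p = 3.7e-07). For both genes every AGS array lay below the median of all values and every HGC-27 array far above it, and the smallest difference in any condition was -6.16 for SNAI2 and -6.38 for TWIST1. QKI, an RNA-binding protein that shapes mesenchymal splicing, PRRX1, a homeobox factor of mesenchyme, SPARC, a matrix glycoprotein, and FSTL1 differed by -7.53 ± 0.12, -6.24 ± 0.14, -6.64 ± 0.19 and -5.82 ± 0.12. Named after their values were seen, VIM, the vimentin filament, was read at 298, 271 and 250.2 in AGS cells and at 12532, 13731 and 13497 in HGC-27 (48.6-fold), and ZEB1 differed by -5.74 ± 0.13. CDH2, N-cadherin, did not pass the test (-0.06 ± 0.18, adjusted p = 0.78). Its intensities were 47.6, 57.5 and 47 in AGS against 57.6, 57.4 and 44.4 in HGC-27, close to the median of all values on every array.

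TAGLN, which encodes the actin-binding protein transgelin of smooth muscle and fibroblasts, was the one member of the list higher in AGS (4.66 ± 0.19). It had intensities of 3583, 7803 and 7090.0 in AGS but 209.6, 292 and 201 in HGC-27, with no overlap. Without probe sets ending _x_at or _s_at, which may bind several transcripts, the remaining TAGLN probe set gave 0.08 and the call was lost. Moesin (MSN, 0.60 ± 0.09), caldesmon (CALD1, 0.56 ± 0.08) and THY1 (-0.70 ± 0.13) stayed under 2-fold.

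**Figure D2:**
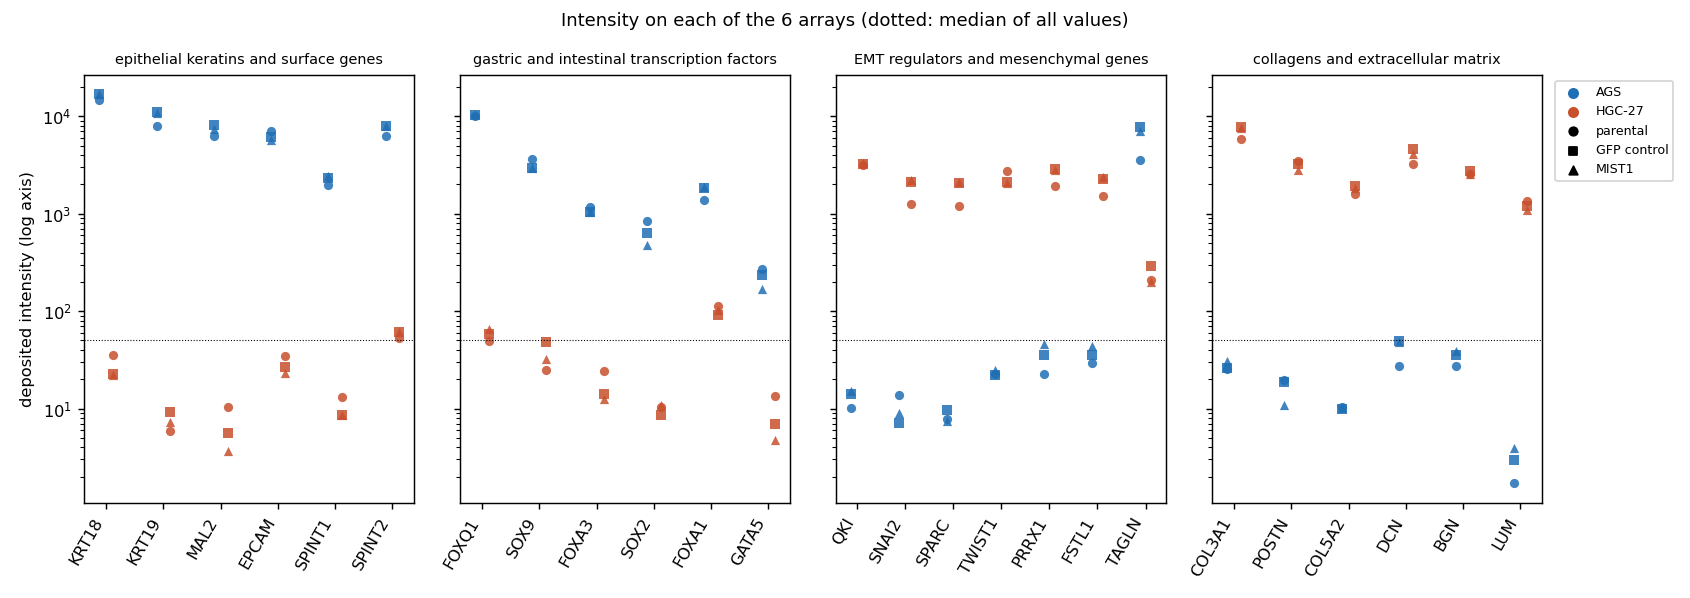
Deposited intensity (log axis) of the members with the largest called differences in 4 gene lists, on each of the 6 arrays. Colour gives the line (blue AGS, orange HGC-27), marker shape the condition, and the dotted line the median of all values, 50.53. The genes of the left pair of panels and TAGLN are high in AGS and the others in HGC-27, and in every gene shown the lines do not overlap. These genes were chosen by the size of their difference, and 61.4% of all genes tested do not overlap.

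Of 30 collagens and other matrix genes 19 were higher in HGC-27 and 4 in AGS (median -2.62). These are 63.3% and 13.3%, beside 12.5% and 15.1% of all genes. POSTN, periostin, a matrix protein of fibroblasts, measured 19.5, 18.9 and 10.8 in AGS against 3458, 3281 and 2795 in HGC-27. COL5A2, a fibrillar collagen chain, and the small proteoglycans LUM, BGN and DCN differed by -6.66 ± 0.13, -6.10 ± 0.13, -6.28 ± 0.14 and -6.61 ± 0.13. COL3A1, a fibrillar collagen, had the largest difference of the list (-8.01 ± 0.12) and was read at 5790.2, 7779 and 7656 in HGC-27. Among probe sets without the endings _x_at and _s_at the brightest for COL3A1 gave -0.33, and the call was lost. COL1A1 was read at 682, 1314 and 1164 in AGS cells and at 5944, 5708 and 5620.4 in HGC-27, so that AGS was also clearly above the median of all values (-2.50 ± 0.19). Higher in AGS were TGFBI, a matrix protein induced by TGF-beta (3.95 ± 0.17), THBS1, thrombospondin (3.02 ± 0.23), the basement membrane collagen COL4A1 (2.88 ± 0.17) and ECM1 (1.88 ± 0.15). THBS1 was also lost without those probe sets, at 0.92.

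Of 23 integrin, laminin and related genes 10 were higher in AGS and 4 in HGC-27. ITGA2, a collagen receptor chain of epithelia, had intensities of 1811, 3009 and 3372 in AGS but 11.1, 17.3 and 13.9 in HGC-27, at least 52.2-fold. LAMB3, a laminin chain of epithelial basement membrane, and the chains of its receptor, ITGA6 and ITGB4, differed by 6.57 ± 0.25, 4.07 ± 0.13 and 4.63 ± 0.16. On the HGC-27 side stood DDR2, a receptor for fibrillar collagen (-6.41 ± 0.29), SDC2, a proteoglycan of mesenchymal cells (-6.24 ± 0.14), ITGA4 (-4.20 ± 0.17) and CD44 (-1.23 ± 0.17). ITGB1, the shared beta chain, was bright in both lines and under 2-fold (0.64 ± 0.05). Of 25 matrix proteases and inhibitors 10 were higher in AGS, among them SERPINB5 or maspin (6.40 ± 0.13), TMPRSS4 (5.54 ± 0.13) and the collagenase MMP1 (5.03 ± 0.37). The 7 higher in HGC-27 were led by the lysosomal protease CTSL (-5.59 ± 0.16), the inhibitor TIMP3 (-5.25 ± 0.44) and the membrane protease MMP16 (-4.65 ± 0.15). MMP1 in AGS and TIMP3 in HGC-27 also moved with condition: MMP1 read 1323, 309.6 and 462 in AGS and TIMP3 357, 1481 and 1443 in HGC-27.

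Transcription factors that specify stomach and intestine were called in one direction. Of 18 measured, 11 were higher in AGS and none in HGC-27 (median 2.66, but 0.998 over 23 genes without the filter on dim probe sets). SOX9, a factor of gut progenitor cells, measured 3653, 2923 and 2934 in AGS against 24.7, 47.6 and 32.4 in HGC-27, at least 62.4-fold. SOX2, which marks foregut and stomach, was read at 842, 628 and 475 in AGS cells and at 10.5, 8.62 and 10.98 in HGC-27. The ranges were far apart for both factors. FOXQ1, FOXA3, FOXA1 and GATA5, factors of endodermal epithelia, differed by 7.49 ± 0.11, 5.79 ± 0.14, 4.05 ± 0.16 and 3.65 ± 0.19. Named after their values were seen, the intestinal factor CDX2 read 543, 304 and 316 in AGS against 25.4, 49.4 and 39.6 in HGC-27, and GATA6 differed by 3.38 ± 0.14. KLF5 (0.74 ± 0.18) and HNF4G (-0.82 ± 0.17) were not called.

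Of 24 products of gut epithelium past the filter 13 were higher in AGS and none in HGC-27 (median 1.41, but 0.24 over 32 genes without the filter). VIL1, villin of the microvillus core, had intensities of 2419.9, 3274 and 3126 in AGS but 4.25, 1 and 3.54 in HGC-27, at least 57.7-fold. LYZ (lysozyme), CEACAM6 (a surface adhesion protein), CDH17 (liver-intestine cadherin), TFF1 (a trefoil peptide of the gastric surface) and REG4 differed by 6.40 ± 0.20, 6.14 ± 0.16, 6.08 ± 0.20, 5.91 ± 0.20 and 5.69 ± 0.14. Pepsinogen C (PGC), of the enzyme-secreting cells of the stomach, was not called and measured 70.6, 95.99 and 114 in AGS against 39.9, 75.7 and 94.7 in HGC-27, and PSCA, of the gastric surface, was not called either (-0.21 ± 0.17). MUC5AC, the surface mucin of the stomach and named after its values were seen, was read at 70.5, 107 and 127 in AGS cells and at 83.04, 95.3 and 116 in HGC-27, overlapping between the lines.

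Growth factor receptors and ligands counted 10 of 30 higher in AGS and 5 in HGC-27 (median 0.47). These are 33.3% and 16.7%, beside 15.1% and 12.5% of all genes. In AGS the ligands TGFA (4.28 ± 0.15) and EFNB2 (4.23 ± 0.13) and the receptors MST1R (3.76 ± 0.14), EPHA2 (3.03 ± 0.13) and MET (2.29 ± 0.20) were higher. MET, the receptor of hepatocyte growth factor, had intensities of 1154, 900.4 and 1106 in AGS but 338, 192 and 152 in HGC-27. HGC-27 was higher for PDGFC, a ligand of platelet-derived growth factor receptors (-6.31 ± 0.12), for AXL (-3.32 ± 0.18), ROR2 (-2.83 ± 0.18) and FGFR3 (-1.77 ± 0.09), and weakly for PDGFRB (-1.79 ± 0.23), whose call was lost with the floor at the median. ERBB2, the target of trastuzumab in gastric cancer, measured 866, 1207 and 1248 in AGS against 402, 839 and 826 in HGC-27 and was not called (0.74 ± 0.14).

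In the Wnt pathway, which maintains gut stem cells, 7 of 28 genes were higher in AGS and 8 in HGC-27 (median 0.19). The stem cell receptor LGR5 was read at 2411, 2500.1 and 2358 in AGS cells and at 2.51, 15.5 and 9.39 in HGC-27, at least 47.9-fold. RNF43, a ligase that removes Wnt receptors (5.36 ± 0.20), the target factor SP5 (3.29 ± 0.24) and the feedback inhibitors AXIN2 (1.87 ± 0.08) and DKK1 (2.77 ± 0.37) were also higher in AGS. On the HGC-27 side were the ligands WNT5A (-5.08 ± 0.12) and WNT11 (-4.73 ± 0.16), which signal mostly outside beta-catenin, the receptor FZD1 (-6.78 ± 0.12), the secreted inhibitor SFRP4 (-6.35 ± 0.43), the membrane inhibitor APCDD1 (-7.43 ± 0.33) and the nuclear effector LEF1 (-5.92 ± 0.13). APCDD1 read 1389.6, 4631 and 4364 in HGC-27 and SFRP4 721, 3928 and 3654, both dimmer in the parental cells than in either transfected population. DKK1 was also dimmer in parental HGC-27 (533, 2421 and 2762), and its difference without the parental arrays was 2.12. AXIN2, in contrast, varied little with condition, at 3659, 3789.5 and 3796 in AGS against 886, 1093 and 1103 in HGC-27.

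Of 30 genes of the TGF-beta, BMP and activin pathway 8 were higher in AGS and 9 in HGC-27. The receptors TGFBR2 (4.62 ± 0.15), TGFBR3 (2.29 ± 0.11), ACVR1 (1.51 ± 0.17) and BMPR2 (1.49 ± 0.11) were higher in AGS. TGFBR2, the receptor that binds TGF-beta first, had intensities of 827, 699 and 724 in AGS but 27.8, 27.8 and 36.1 in HGC-27. The ligands TGFB3 (-3.75 ± 0.27) and TGFB2 (-2.26 ± 0.25), the latent binding protein LTBP1 (-3.46 ± 0.12), the BMP inhibitor NOG (-5.28 ± 0.18) and the signal carrier SMAD9 (-5.28 ± 0.16) were higher in HGC-27. SMAD4, the shared carrier, stayed under 2-fold (-0.81 ± 0.10, adjusted p = 4.5e-04).

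Notch genes were even at 4 of 18 on each side. The ligand JAG1 (2.56 ± 0.10), the glycosyltransferase LFNG (3.14 ± 0.15), DTX4 (3.34 ± 0.12) and the target HES1 (2.64 ± 0.49) were higher in AGS. The ligands JAG2 (-3.89 ± 0.12) and DLL1 (-2.32 ± 0.21), the receptor NOTCH3 (-3.97 ± 0.12) and the target HEY2 (-3.62 ± 0.16) were higher in HGC-27. HES1 read 3259, 1524 and 1608 in AGS against 156, 465 and 453 in HGC-27, its difference without the parental arrays was 1.77, and its call was lost without the filter. DLL1 was lost with the floor at the median. A second probe set of NOTCH3 gave 0.08, so the probe sets of that gene disagreed. Of 23 genes regulated by YAP and TEAD, 9 were higher in AGS and 7 in HGC-27. CCN2, the connective tissue growth factor (4.45 ± 0.21), MYOF (3.73 ± 0.35) and ANKRD1 (3.73 ± 0.23) stood against AXL (-3.32 ± 0.18), FJX1 (-3.90 ± 0.17) and FOXF2 (-4.79 ± 0.16). CCN1, a close relative of CCN2, was not called (0.36 ± 0.18, adjusted p = 0.14). AMOTL2 and AJUBA, called higher in AGS, lost the call without the parental arrays, and the count of this list higher in AGS fell from 9 to 5. MYOF differed by 3.12 without those arrays.

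**Figure D3:**
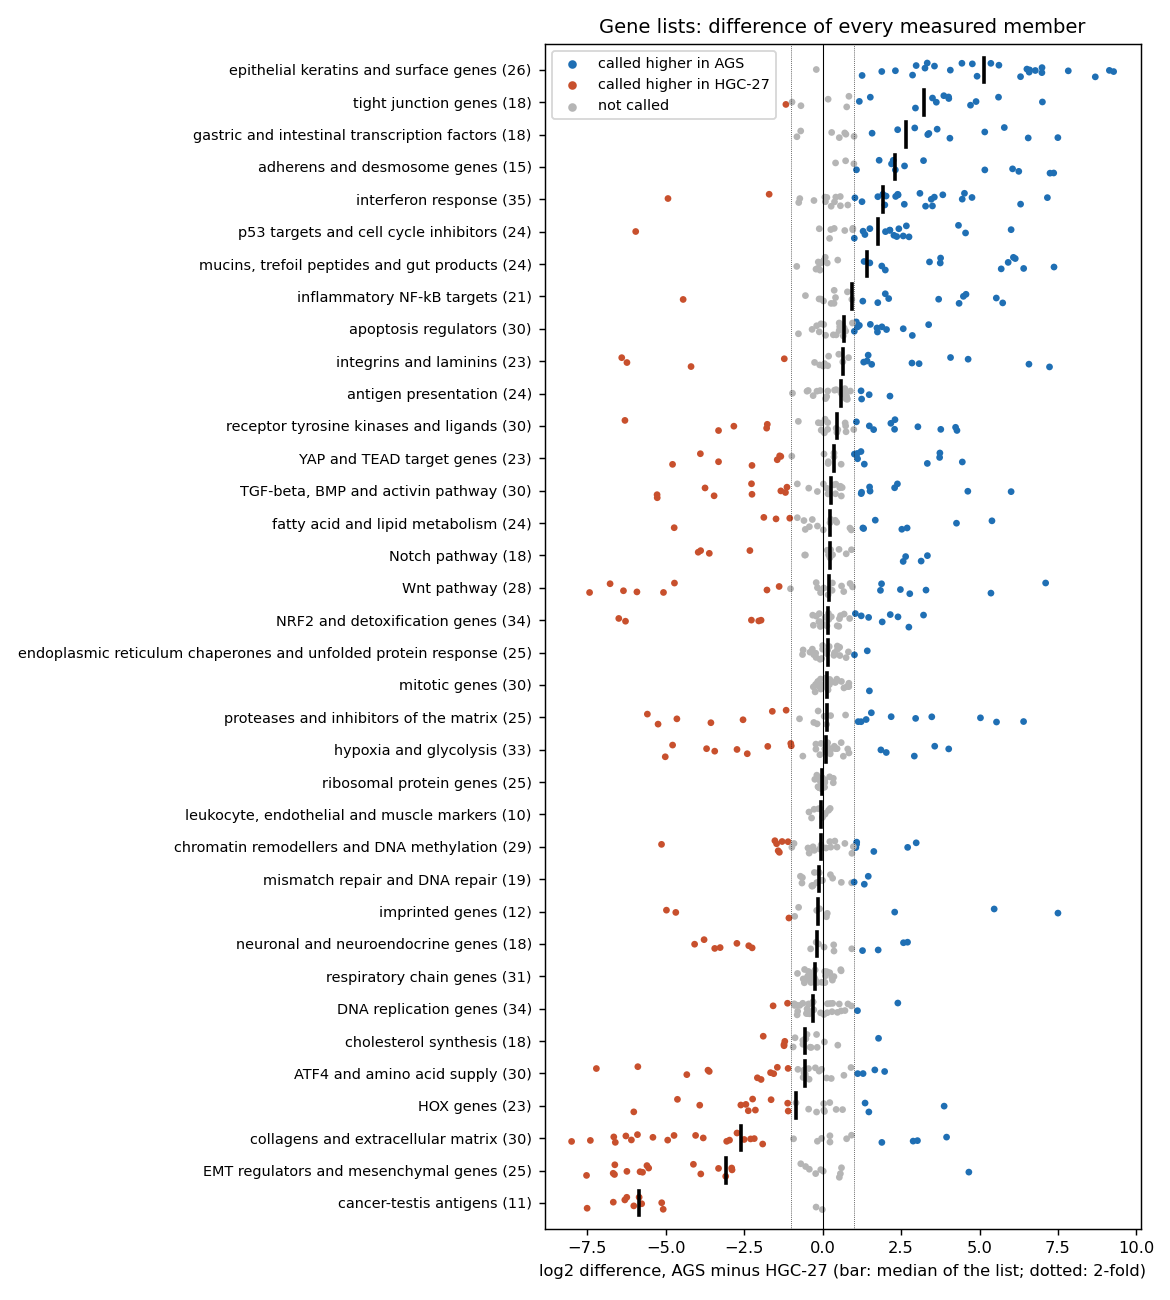
Difference between AGS and HGC-27 (x axis, log2) of every measured member of the 36 gene lists, 1 point per gene, with the number measured in brackets. Blue and orange points were called higher in AGS and in HGC-27, grey points were not called, and the black bar is the median of the list. Epithelial surface genes lie mostly on the right (median 5.14) and EMT and mesenchymal genes mostly on the left (median -3.09), and ribosomal and respiratory chain genes stay inside the dotted 2-fold lines.

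HOX genes, which hold a record of position along the body, were uneven across clusters: 3 of 23 measured were higher in AGS and 11 in HGC-27. In the HOXC cluster 5 of 7 were higher in HGC-27 and none in AGS, and in the HOXD cluster 4 of 6 and none. HOXC10 measured 13.9, 11.2 and 14.2 in AGS against 1085, 1076 and 1285 in HGC-27. HOXD10 and HOXD13 differed by -4.63 ± 0.15 and -3.92 ± 0.18. The HOXB cluster was mixed, with HOXB6 (3.87 ± 0.21), HOXB9 (1.47 ± 0.19) and HOXB3 (1.35 ± 0.15) among 3 of 9 higher in AGS and HOXB7 (-2.45 ± 0.12) among 2 higher in HGC-27. A second HOXB6 probe set gave -0.04, so that call rests on 1 of 2 probe sets. HOXB9 lost the call when its probe sets were averaged, at 0.90. Of the HOXA cluster 1 gene was measured here.

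Cancer-testis antigens, genes of the germ line that tumours can switch on, were called only on the HGC-27 side: of 11 past the filter on dim probe sets 9 were higher there and none in AGS. The called members are those that were bright in HGC-27, and without the filter the median of 21 genes was -0.28. MAGEA4 was read at 15.9, 10.7 and 6.83 in AGS cells and at 1032, 1062 and 959.8 in HGC-27, and MAGEA10 read 10.7, 4.71 and 3.18 and 988, 1297 and 1169. The groups did not overlap for either gene. CTAG2, MAGEA1, MAGEA6 and MAGEA12 differed by -6.68 ± 0.18, -6.31 ± 0.13, -7.51 ± 0.41 and -6.25 ± 0.16, by probe sets that can bind other copies of these near-identical genes, so which copy was read is uncertain. A further 10 listed genes did not pass the filter, and SPANXB1 (-0.01 ± 0.19) and MAGEB1 (-0.21 ± 0.18) were not called.

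Imprinted genes, expressed from one parental copy, split 3 and 3 among 12. MEST had intensities of 4630.2, 4906 and 4938 in AGS but 24.9, 22.8 and 33.5 in HGC-27, at least 95.4-fold, while SGCE (-4.98 ± 0.14) and PEG10 (-4.68 ± 0.21), imprinted neighbours of each other on the same chromosome, were higher in HGC-27. GNAS, the stimulatory G protein, differed by 5.46 ± 0.20, by a probe set that can bind related transcripts. Among 29 chromatin genes 6 were higher in AGS and 7 in HGC-27. KDM6A, an X-linked demethylase (2.98 ± 0.12), and the DNA methyltransferase DNMT3A (1.63 ± 0.12) were higher in AGS. HDAC9 (-5.14 ± 0.15) and the remodelling ATPases SMARCA2 (-1.53 ± 0.10) and SMARCA4 (-1.42 ± 0.08) were higher in HGC-27. DNMT3A lost the call when all its probe sets were averaged, at 0.89. HDAC1, HDAC2 and DNMT3B lay just past 2-fold in AGS and lost the call under all 3 other scalings of the arrays. KDM5B (2.71 ± 0.23) was lost without probe sets ending _x_at or _s_at, at 0.20.

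Targets of p53 and inhibitors of the cell cycle were mostly higher in AGS: 16 of 24, with 1 higher in HGC-27 (median 1.75). CDKN1A encodes p21, the inhibitor that p53 induces. The intensities of CDKN1A were 3859, 6357 and 6455 in AGS against 159, 285 and 269.9 in HGC-27. That is 23.5-fold higher in AGS (4.55 ± 0.09, adjusted p = 3.0e-07). GDF15, a stress cytokine, TP53INP1, ZMAT3, the repair factor DDB2 and the apoptosis effector BAX differed by 6.00 ± 0.28, 4.33 ± 0.32, 2.75 ± 0.13, 2.67 ± 0.12 and 2.57 ± 0.10. MDM2, the ligase that removes p53 and itself a p53 target, was named after its values were seen and differed by 2.27 ± 0.10. CDKN2A, which encodes the inhibitors p16 and ARF, was the exception. AGS read CDKN2A at 88.1, 86.2 and 99.4 and HGC-27 at 5412, 5926 and 5698, a 62.3-fold difference (-5.96 ± 0.10, adjusted p = 3.0e-07). The p53 gene itself is not analysed here. Without probe sets ending _x_at or _s_at 16 of the list's genes were left, of which 10 were called higher in AGS.

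Of 30 mitotic genes 1 was higher in AGS, the proliferation antigen MKI67 (1.49 ± 0.14), whose call was lost when all its probe sets were averaged, and none in HGC-27 (median 0.14). AURKA (0.83 ± 0.07), CENPE (0.83 ± 0.10) and CCNA2 (0.77 ± 0.09) passed the adjusted p but not the 2-fold limit. Among 34 replication genes 2 were called on each side, although 11 passed the adjusted p alone higher in AGS and 19 higher in HGC-27. The other 3 scalings of the arrays gave 1 and 4. Cyclin E1, CCNE1, measured 1964, 2011 and 1908 in AGS against 355, 422 and 347 in HGC-27. PRIM1, the primase, and MCM7, of the replicative helicase, were higher in HGC-27 (-1.58 ± 0.11 and -1.12 ± 0.07). Of 30 apoptosis regulators 12 were higher in AGS and none in HGC-27, led by BIK (3.38 ± 0.18) and the caspase regulator CFLAR (2.85 ± 0.12). The count in AGS was 8 without the parental arrays, and 9 under the other 3 scalings or with probe sets averaged. With the floor at the median 1 was higher in HGC-27. BCL2L1, which protects mitochondria, was among the 12 (1.89 ± 0.16), so that both promoters and inhibitors of cell death were included. BCL2 was not called (-0.77 ± 0.24, adjusted p = 0.029). The repair gene MGMT, which reverses alkylation, was higher in AGS (1.45 ± 0.10) and was 1 of 3 among 19 repair genes. These 3 are 15.8%, beside 15.1% of all genes. The other 2, XRCC1 and ERCC2, lost the call without the parental arrays, at 0.99 and 0.94.

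Interferon response genes were higher in AGS in 21 of 35 cases, with 2 higher in HGC-27 (median 1.92). ISG15, a ubiquitin-like protein, was read at 5253, 6859 and 6622 in AGS cells and at 241, 324 and 296 in HGC-27, 21.8-fold. IRF7, a factor that amplifies the response, had intensities of 1017, 1654 and 1733 in AGS but 13.7, 18.99 and 11.6 in HGC-27. The RNA sensor IFIH1 differed by 4.52 ± 0.14 and IFI27 by 7.16 ± 0.16. Some members were brighter in transfected than in parental AGS: IFI27 read 1948, 5406 and 5029 and OAS1 564, 1192 and 1181, and the parental difference alone was 6.79 and 2.78. IFI44L (-4.93 ± 0.15) and IFI35 (-1.71 ± 0.24) were the members higher in HGC-27. Of 24 antigen presentation genes 4 were higher in AGS, or 16.7% beside 15.1% of all genes: HLA-B (1.22 ± 0.12), TAP1 (1.24 ± 0.13), PSMB8 (1.48 ± 0.11) and ERAP2 (2.14 ± 0.12). Without probe sets ending _x_at or _s_at 1 of 15 was called on each side, and without the parental arrays 4 and 2 of 24. The HLA genes are close relatives, and their probe sets may read each other.

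Inflammatory targets of NF-kB counted 10 of 21 higher in AGS and 1 in HGC-27 (median 0.93). The cytokines IL32 (5.74 ± 0.16), IL18 (5.53 ± 0.19) and LIF (4.57 ± 0.17), the prostaglandin synthase PTGS2 (4.35 ± 0.23) and the adhesion molecule ICAM1 (3.69 ± 0.14) were higher in AGS. ICAM1 measured 555, 526 and 525 in AGS against 44.3, 35.7 and 44.6 in HGC-27. CCL2, the monocyte attractant, was higher in HGC-27 and read 114, 668 and 745 there. Its parental value was the lowest of the 3, and the difference ran from -2.70 in parental cells to -5.40 with MIST1.

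Among metabolic genes, ASS1, argininosuccinate synthase, which makes arginine from citrulline, was read at 24.7, 27.4 and 33.5 in AGS cells and at 6096, 3653 and 3349 in HGC-27, at least 83.3-fold. PHGDH, the entry enzyme of serine synthesis, had intensities of 60.3, 65.7 and 69.9 in AGS but 4497, 3492 and 3702 in HGC-27, 59.5-fold. AGS read ASS1 below and PHGDH just above the median of all values, far from the HGC-27 arrays. They were among 11 of 30 genes of amino acid supply and of the stress factor ATF4 that were higher in HGC-27, while 4 were higher in AGS (median -0.58). These are 36.7% and 13.3%, beside 12.5% and 15.1% of all genes. ALDH1L2, of mitochondrial folate metabolism (-3.66 ± 0.23), VLDLR (-4.33 ± 0.20) and STC2 (-3.62 ± 0.19) belonged to the same list.

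Among 34 NRF2 and detoxification genes 8 were higher in AGS and 5 in HGC-27. These are 23.5% and 14.7%, beside 15.1% and 12.5% of all genes. CYP1B1, an oxidising enzyme of xenobiotics (-6.50 ± 0.12), malic enzyme ME1 (-6.29 ± 0.21) and the cystine carrier SLC7A11 (-1.97 ± 0.21) were higher in HGC-27. UGT1A6 (3.21 ± 0.47), GSTM1 (2.74 ± 0.12), haem oxygenase HMOX1 (2.40 ± 0.19) and glutathione peroxidase GPX2 (2.15 ± 0.26) were higher in AGS. UGT1A6 lost the call without the filter, and its difference without the parental arrays was 3.99. GSTM1 and UGT1A6 have close relatives that their probe sets may read.

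Of 33 hypoxia and glycolysis genes 5 were higher in AGS and 9 in HGC-27. These are 15.2% and 27.3%, beside 15.1% and 12.5% of all genes. The glucose carriers SLC2A1 and SLC2A3 and the factor EPAS1 were higher in AGS. In HGC-27 SLC2A1 read 765, 980.1 and 977, against 5014, 7926 and 7966 in AGS, 7.56-fold lower (2.92 ± 0.09, adjusted p = 7.7e-07). Adrenomedullin (ADM, -5.02 ± 0.22), the carbonic anhydrases CA2 (-4.79 ± 0.21) and CA12 (-3.70 ± 0.13) and the neuronal enolase ENO2 (-3.44 ± 0.19) were higher in HGC-27. HIF1A itself was bright in both lines and under 2-fold (0.84 ± 0.06). In lipid metabolism 7 of 24 were higher in AGS, with PPARG (4.26 ± 0.15) and endothelial lipase LIPG (5.39 ± 0.23), and 4 in HGC-27, with APOE (-4.73 ± 0.21) and ACSL1 (-1.88 ± 0.14). Cholesterol synthesis had 1 of 18 higher in AGS, TM7SF2, and 4 in HGC-27, among them squalene epoxidase SQLE (-1.90 ± 0.06) and the regulator SREBF2 (-1.23 ± 0.12). SREBF2 lost the call when its probe sets were averaged, at -0.72.

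The listed ribosomal and respiratory chain genes stayed under 2-fold between the lines. None of 25 ribosomal protein genes and none of 31 respiratory chain genes was called by limma. The adjusted p alone was passed by 8 and 22 of them, beside 60.2% of all genes. The respiratory chain leaned to one side, with 17 passing on the HGC-27 side and 5 on the AGS side (median -0.24). Among all 13730 genes these numbers were 3718 and 4544. The other 3 scalings moved the respiratory chain median to between -0.39 and -0.40. Ribosomal genes split 5 and 3 in the same order (median -0.04). Differences ran from -0.25 to 0.34 for the listed ribosomal genes and from -0.81 to 0.59 for the listed respiratory chain genes. With probe sets averaged 1 of 25 and 1 of 31 were called higher in HGC-27. Without probe sets ending _x_at or _s_at 1 of 12 ribosomal genes was. NDUFB9, a respiratory chain gene outside the list and named after its values were seen, was called higher in HGC-27 (-1.30 ± 0.05, adjusted p = 1.5e-06). RPS23 measured 16047, 16232 and 16115 in AGS against 15546, 16437 and 16019 in HGC-27. TUBA1B (0.07 ± 0.04), PPIA (0.03 ± 0.03), RPS6 (-0.11 ± 0.03) and the mitochondrial COX2 (0.11 ± 0.03) were the other bright genes within 1.1-fold, of 2379 genes in all. Chaperones of the endoplasmic reticulum had 2 of 25 higher in AGS, ERO1A (1.42 ± 0.07) and HSP90B1 (1.01 ± 0.14), the second only just past 2-fold. HSP90B1 lost the call under all 3 other scalings, with probe sets averaged, and when the GFP control or the MIST1 condition was left out. Its difference was 0.60 in parental cells. Without probe sets ending _x_at or _s_at 1 of 20 was higher in AGS and 2 in HGC-27. Of 18 neuronal and neuroendocrine genes 4 were higher in AGS, with L1CAM (2.57 ± 0.22), and 7 in HGC-27, with synaptotagmin SYT1 (-4.08 ± 0.13) and PCDH9 (-3.78 ± 0.13).

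The largest differences included genes of no list. In AGS these were TSPAN8, a tetraspanin of gut epithelium, GATM, which makes the creatine precursor, PLA2G2A, a secreted phospholipase of the gut, and ANXA3, an annexin. TSPAN8 was read at 8421, 10434 and 10633 in AGS cells and at 15.2, 13.9 and 13.5 in HGC-27, at least 193-fold. GATM, PLA2G2A, ANXA3, the lysosomal enzyme GALC, AMIGO2, INAVA, PLAAT3, C19orf33 and the phosphatase DUSP4 differed by 8.37 ± 0.13, 8.37 ± 0.17, 8.23 ± 0.11, 8.14 ± 0.12, 7.95 ± 0.14, 7.77 ± 0.24, 7.74 ± 0.12, 7.72 ± 0.16 and 7.67 ± 0.14. None of these was above the median of all values on any HGC-27 array.

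In HGC-27 the largest difference among probe sets not ending in _x_at was that of GJA1, connexin 43 of gap junctions. The intensities of GJA1 were 19.1, 22.2 and 14.2 in AGS against 4729.6, 5333 and 5209.5 in HGC-27. That is at least 101-fold lower in AGS (-8.02 ± 0.12, adjusted p = 2.6e-07). CCND2, a D-type cyclin, had intensities of 17.8, 22.3 and 15.9 in AGS but 4007, 3569 and 3543 in HGC-27. The homeobox factors MSX1 (-7.35 ± 0.24) and LHX9 (-7.22 ± 0.16), the peptide-processing enzyme CPE (-7.34 ± 0.12), the integrin activator FERMT2 (-7.23 ± 0.15), the actin linker RDX (-7.21 ± 0.15) and QPRT of NAD synthesis (-7.15 ± 0.13) followed. EFHD1 (-7.50 ± 0.13) and KIF26A (-7.42 ± 0.19) completed the set. For 1735 of 1899 called genes with several probe sets, or 91.4%, all probe sets lay on the side of the call.

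Across the 3 conditions, 600 of the 3798 called genes had condition differences spread over more than 1 log2 unit. Among them IL7R, the interleukin-7 receptor, measured 16.9, 7.5 and 10.4 in AGS against 84.4, 1346 and 1654 in HGC-27. CXCL14, a chemokine, read 7.18, 11.4 and 7.52 and 12.6, 394 and 279. Both were dim or weak in parental HGC-27 and bright in both transfected populations, while AGS stayed dim throughout. CHODL moved the opposite way in HGC-27, with 1139.6, 188 and 134, and GPR39, called higher in AGS, read 23.3, 213 and 240.0 in HGC-27. KRTAP3-1 moved in AGS (15.5, 180.1 and 333). Among the genes that moved most, CXCL14, SOST, TNC, MRGPRF and KRTAP3-1 had a parental difference of 0.00 after flooring. No baseline difference was measured in these genes. With 1 array per line and condition, transfection, sorting and hybridisation cannot be told apart here.

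**Figure D4:**
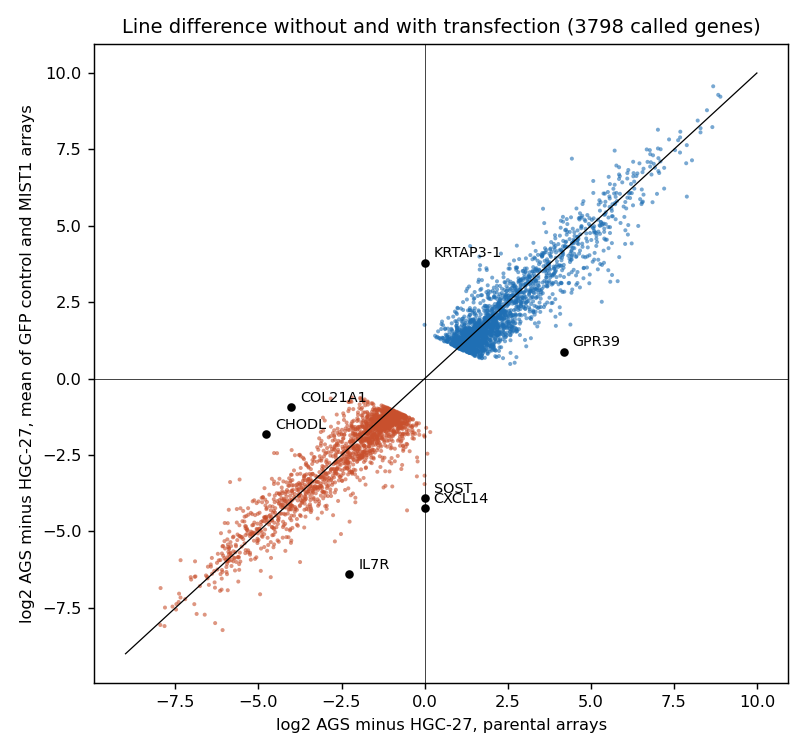
Difference between the lines (log2, AGS minus HGC-27) in parental cells (x axis) against the mean of the GFP control and MIST1 populations (y axis), for the 3798 called genes. Blue points were called higher in AGS and orange points in HGC-27, and the black diagonal marks equal differences. Most points follow the diagonal, and the labelled genes, among them IL7R, CXCL14 and GPR39, lie far from it.

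Called genes were spread unevenly over chromosomes. On chromosome 20, 20.7% of 392 genes were higher in AGS and 6.12% in HGC-27 (median 0.40), and on chromosome 19 the shares were 24.1% and 12.4% of 963. Chromosome 18 leaned the other way with 13.8% and 23.6% of 203 (median -0.23), as did chromosome 7 with 9.22% and 18.4% of 651. Runs of at least 5 neighbouring tested genes all called in one direction numbered 18, with 8 higher in AGS and 10 in HGC-27. Their longest was on chromosome 8, where 18 neighbours from C8orf76 to NSMCE2 were all higher in HGC-27, by -1.05 to -3.99 (median -2.52). It held ATAD2, a chromatin ATPase (725, 821 and 927 in AGS against 7510.4, 7165 and 7998 in HGC-27), TMEM65 (-3.99 ± 0.25), the ubiquitin ligase RNF139 (-2.16 ± 0.07) and SQLE. C8orf76, ZHX1 and their read-through transcript, and RNF139 and its divergent transcript, are overlapping or adjoining units and not independent entries. A second run of 5 genes ended nearby with DEPTOR, an inhibitor of mTOR (-5.13 ± 0.21). Between the runs MRPL13, MTBP, HAS2, DERL1 and TBC1D31 were also called higher in HGC-27, and COL14A1, SNTB1 and FAM83A were not called. MYC, further along and named after its values were seen, was read at 3366, 1582 and 1794 in AGS cells and at 5053, 4758 and 5199 in HGC-27 (-1.24 ± 0.19), and MAL2, before the run, was higher in AGS. DNA copy number was not measured in these arrays.

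**Figure D5:**
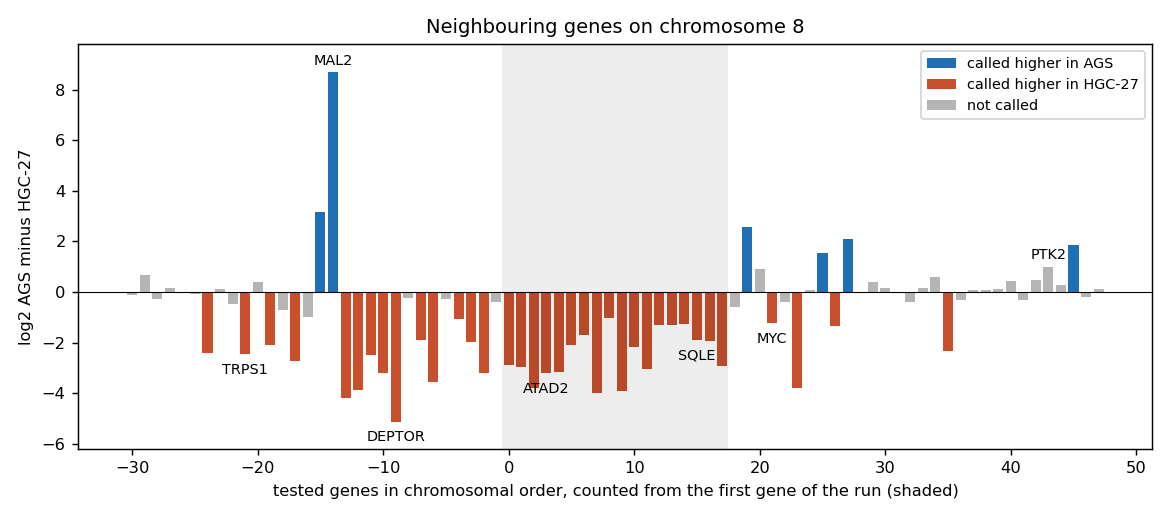
Difference between AGS and HGC-27 (y axis, log2) of tested genes in chromosomal order around the longest run, counted from its first gene. The shaded 18 genes are all called higher in HGC-27 (orange). Directly before them, from CCN3 on, genes are called higher in HGC-27 or not called (grey), and none is called higher in AGS. Further out on that side, and after the shaded genes, calls of both directions and genes not called are mixed. MAL2 stands at 8.69 on the AGS side.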

How the data were processed

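RNA of 6 cultures was measured on one-colour Affymetrix arrays with 54675 probe sets. The authors deposited 1 intensity per probe set and array on a linear scale, between 0.48 and 19070.49. dChip is the program in the series design text, and background correction and scaling are not given in the sources used here. Probe sets were named from the platform annotation, with 41043 of 41097 single-gene symbols updated through RefSeq (GRCh38.p14). The 1801 probe sets with several genes are not named.

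Values were floored at 17.6, their 25th percentile, and log2 was taken. Probe sets above the median, 50.53, on at least 2 arrays were kept (25933), with the brightest per gene, which gave 13730 genes. Y-linked genes and XIST were left out. limma 3.58.1 (R 4.3.3) fitted line with condition as a block (lmFit, eBayes with trend, Benjamini-Hochberg), on 2 residual and 4.47 prior degrees of freedom. The script was tested on simulated data. The number of arrays limits precision.

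The gene lists and the comparison were chosen with earlier results of these data known. Named genes were the 15 largest differences in each direction without probe sets ending _x_at, up to 6 called members per list and direction and up to 3 not called, fixed cell markers, and the 5 brightest genes within 1.1-fold. Alternatives changed the floor, filter, scaling, probe set rule, variance model, block, fold limit and arrays.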

Additional observations from a re-analysis of the deposited data

How the results depend on the processing

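The counts of genes called in each direction and by adjusted p alone stayed within 1.5 times under the alternatives run, with these exceptions. With at least 3 arrays above 4 times the median, 9120 genes were tested and 1142 were higher in HGC-27. A 1.5-fold limit gave 3299 genes higher in AGS and 2732 in HGC-27, and a 4-fold limit 897 and 860. Leaving out 1 array gave 2001 to 2189 genes higher in AGS, 1649 to 1858 in HGC-27 and 6847 to 9947 by adjusted p alone. Either array of a condition gave the same counts of called genes, because its partner in the block then says nothing on the line difference. These runs therefore amount to leaving out each of the 3 conditions in turn. Without the block for condition 2065 and 1705 genes were called and 7336 passed the adjusted p alone. The block for condition pairs each AGS array with the HGC-27 array of the same condition. No other pairing was possible because the labels give no replicate numbers. Scaling moved the median difference of all genes from 0.06 to -0.09 with arrays centred on the median, and to -0.08 with arrays scaled on the hybridisation controls, which was tried only after seeing the data. The share of calls higher in AGS went from 54.7% to 47.2% in both.

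HOXB6 was -0.0405 without probe sets ending _x_at or _s_at, since another probe set was then read. Of 274 called genes named by the rule, 34 lost the call under at least 1 alternative. Without the parental arrays 9 of them moved by over 1.5 times in fold: DKK1, HES1, MYOF, MMP1 and UGT1A6 in AGS and CCL2, MAGEA6, SFRP4 and TIMP3 in HGC-27.

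Without probe sets ending _x_at or _s_at fewer genes are left, and counts of several lists fell with them. In AGS these were 5 of 19 integrin and laminin genes, 6 of 15 NF-kB targets, 10 of 16 p53 targets, 3 of 24 detoxification genes, 3 of 17 hypoxia genes, 3 of 14 lipid genes, 2 of 11 Notch genes, 2 of 20 matrix genes and 3 of 20 chromatin genes. In HGC-27 they were 12 of 20 matrix genes, 3 of 18 matrix proteases, 6 of 18 genes of amino acid supply, 3 of 23 receptor kinases and ligands, 2 of 14 lipid genes and 3 of 20 chromatin genes. The other 3 scalings took chromatin genes higher in AGS from 6 to 3, and averaging probe sets took matrix genes higher in AGS from 4 to 7. The filter also sets list medians: without it those of HOX genes (-0.32), matrix genes (-1.91), NF-kB targets (0.42) and integrins and laminins (0.19) lay nearer 0. With the stricter filter 2 of 13 Notch genes, 4 of 15 matrix proteases, 3 of 23 receptor kinases and 3 of 7 neuronal genes were higher in HGC-27 and 2 of 7 neuronal genes in AGS. Genes dim in one line have a fold that is only a lower bound.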

Other observations

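Probe sets with no single gene in the annotation also held large differences. Of 4949 past the filter, 44 were at least 16-fold higher in AGS and 59 in HGC-27, and none is named here. Among the 13730 genes tested, 285 and 328 were called with at least 16-fold. Those counts take the brightest probe set per gene and ask for an adjusted p under 0.05. The counts of unnamed probe sets do neither, so the shares cannot be compared.

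Runs of neighbouring genes outside chromosome 8 included known clusters. On chromosome 19 a run of 8 genes higher in AGS (median 2.13, from 1.46 to 6.28) held the formyl peptide receptor genes FPR1 and FPR3 and a row of zinc finger genes from ZNF613 to ZNF432. On chromosome 2 HOXD9, HOXD10, HOXD11 and HOXD13 formed a run of 5 with LNPK, all higher in HGC-27 (median -1.65). On chromosome 7 DLX5 and DLX6, homeobox genes of limb and face, stood in a run of 5 with asparagine synthetase ASNS (median -1.91), and TWIST1 in a run of 5 with HDAC9 (median -4.10), both higher in HGC-27. On the X chromosome 2 runs of 5, one with CD99 (median 1.59) and one with the steroid sulphatase gene STS (median 1.99), were higher in AGS.

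In 21 called genes with a difference of at least 3 log2 units, another probe set of the gene lay on the other side of 0. Among them, chosen after their values were seen, were the transcription factor RUNX3 (-5.00 against 0.22), the matrix crosslinker LOXL2 (-4.74 against 0.48) and the adhesion molecule CEACAM1 (3.75 against -0.16).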
